A study of Homo sapiens with 6 samples.

Results

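The 9 genes described here encode enzymes that make squalene and carry it to cholesterol: FDFT1, SQLE, LSS, CYP51A1, MSMO1, NSDHL, HSD17B7, SC5D and DHCR7. They were taken by name from the 19987 protein-coding genes of the RefSeq annotation of GRCh38 that lie on chromosomes with peaks. Each was searched for peaks of TAF2 tagged with the V5 peptide, over its annotated span and up to 1000 bp on either side. The data are ChIP-seq of HepG2-TAF2-V5, a clone of the HepG2 hepatocellular carcinoma line, with 3 libraries from the V5 antibody and 3 control libraries. The labels call the controls input in one field and IgG in another, and no control peak list was analysed here. Whether a control entered the background behind the deposited peak values is not known from the sources used. Each V5 library has its own peak list.

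Squalene is made from the isoprenoids of the mevalonate pathway, and the enzymes after it close the sterol rings and then trim and reduce the product to cholesterol. In hepatocytes the genes of both parts are known targets of SREBP-2, a transcription factor that is released from the endoplasmic reticulum when sterol is scarce and that binds promoters together with NF-Y and SP factors. TAF2 belongs to TFIID, the complex that recognises core promoters and nucleates the assembly of RNA polymerase II.

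The sequences below are the 250 bases before the annotated start, read 5′ to 3′ on the gene's strand from RefSeq (GRCh38.p14). They are shown because the summits of the start peaks of these genes lay inside them, except that NSDHL, which had no peak, is printed for contrast. Capitals mark CCAAT boxes, the element bound by NF-Y, on either strand. The windows are chr4:165327419-165327668 (MSMO1, plus strand), chr21:46228775-46229024 (LSS, minus strand), chr1:162790452-162790701 (HSD17B7, plus strand), chr11:121292521-121292770 (SC5D, plus strand) and chrX:152830813-152831062 (NSDHL, plus strand).
MSMO1: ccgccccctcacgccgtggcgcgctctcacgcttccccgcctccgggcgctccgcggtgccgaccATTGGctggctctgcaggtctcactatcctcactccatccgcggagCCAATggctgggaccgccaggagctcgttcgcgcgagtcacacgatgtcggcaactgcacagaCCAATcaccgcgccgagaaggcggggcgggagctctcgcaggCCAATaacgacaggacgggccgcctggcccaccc
LSS: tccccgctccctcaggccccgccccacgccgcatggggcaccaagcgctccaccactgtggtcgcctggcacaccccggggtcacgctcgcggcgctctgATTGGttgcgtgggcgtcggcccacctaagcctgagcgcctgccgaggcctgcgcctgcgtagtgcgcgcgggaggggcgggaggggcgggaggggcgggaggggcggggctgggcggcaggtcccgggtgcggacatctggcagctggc
HSD17B7: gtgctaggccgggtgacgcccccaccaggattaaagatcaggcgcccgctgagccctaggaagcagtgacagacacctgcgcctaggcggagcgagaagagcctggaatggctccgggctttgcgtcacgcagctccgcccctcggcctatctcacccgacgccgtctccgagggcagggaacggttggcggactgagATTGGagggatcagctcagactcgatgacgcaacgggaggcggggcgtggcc
SC5D: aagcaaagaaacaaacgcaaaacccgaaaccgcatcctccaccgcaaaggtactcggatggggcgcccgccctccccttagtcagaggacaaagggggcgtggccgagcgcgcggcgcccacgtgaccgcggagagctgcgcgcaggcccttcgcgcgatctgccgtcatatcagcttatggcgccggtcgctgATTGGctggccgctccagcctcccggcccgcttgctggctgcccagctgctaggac
NSDHL: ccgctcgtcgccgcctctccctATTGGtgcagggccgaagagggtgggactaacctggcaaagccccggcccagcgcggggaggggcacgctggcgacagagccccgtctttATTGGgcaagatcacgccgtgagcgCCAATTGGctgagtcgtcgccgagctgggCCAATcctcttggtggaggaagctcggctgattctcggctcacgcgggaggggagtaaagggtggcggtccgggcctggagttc

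Of the 9 genes, 4 had a peak in at least 2 libraries, FDFT1, SQLE, LSS and MSMO1, against 3.76% of all protein-coding genes by the same rule. Among the 5309 genes whose length lies in the members' own range, 15496 to 43717 bp, the share was 3.30%. FDFT1, SQLE and MSMO1 had a peak in all 3 libraries, against 1.90% of all genes. HSD17B7 and SC5D had a peak in replicate 3 alone, which brings the members with any peak to 6, against 8.67% of all genes. CYP51A1, NSDHL and DHCR7 had none. By library, a peak was called at 3 members in replicate 1 (3.70% of all genes), 4 in replicate 2 (5.75%) and 6 in replicate 3 (4.87%). Replicate 2 had the longest list (2557 peaks, against 1599 in replicate 1 and 1887 in replicate 3), but replicate 3 had peaks at the most members. The lists carry no read totals, so their depth cannot be given. Nothing in the labels tells separate cultures from repeat libraries of 1 culture. The members were chosen by name, so no test was run on the counts, which are given as a description.

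**Figure D1:**
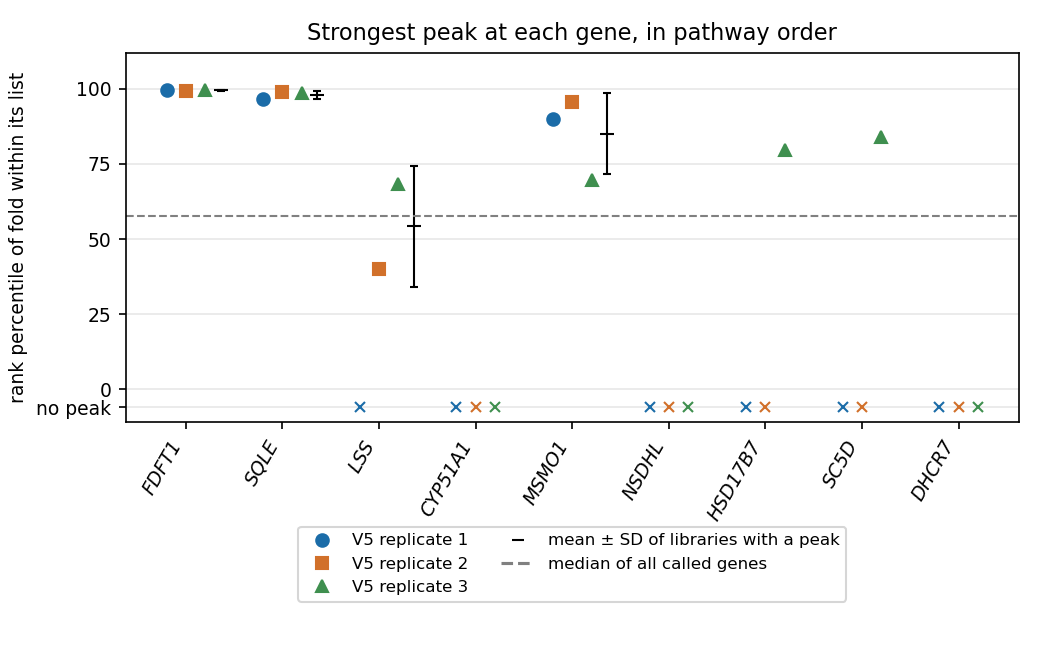
Rank percentile of the strongest peak at each of the 9 genes (y axis, percentile of fold within the library's own list) in pathway order (x axis). Coloured points are the 3 V5 libraries, crosses below 0 mark libraries without a peak, black bars are the mean ± SD of the libraries with a peak, and the dashed line is the median of 57.8 over all genes with a peak in at least 2 libraries. FDFT1 and SQLE lie above 96 in every library, and CYP51A1, NSDHL and DHCR7 have crosses only.

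FDFT1 encodes squalene synthase, which joins a pair of farnesyl diphosphate molecules in the committed step towards sterols. Its strongest peak had a fold over background, the value of the authors' peak caller, of 14.8 in replicate 1, 13.3 in replicate 2 and 12.2 in replicate 3. These folds ranked 7th of 1599, 19th of 2557 and 10th of 1887 peaks. As a percentile of its own list, where 100 is the strongest peak, the mean was 99.5 ± 0.155 (SD, n = 3). FDFT1 was 10th of the 380 genes with a peak in every library, ordered by that mean. The 3 peaks shared 262 bp (chr8:11802472-11802733), and their summits, the highest points of each peak, lay within 16 bp of each other. In 556 regions made of 1 peak from each library, the median range of summits was 66 bp, and 12.1% had a range no wider than that of FDFT1.

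The FDFT1 peak lay inside the annotated gene. The span runs from 11795582 to 11839298 on chromosome 8 and holds 11 curated RefSeq transcripts. The summits were 7016, 7026 and 7010 bp inside the lower annotated end in replicates 1, 2 and 3, out of reach of a search at the ends of the span. At an annotated end, 3 members had a peak in at least 2 libraries (SQLE, LSS and MSMO1), against 1.37% of all genes. The tables used here list no start of FDFT1, and whether a transcript begins at the peak was not tested. The remaining peaks over the gene were each called in a single library. Replicate 1 had one with its summit 4853 bp inside the lower end (fold 6.26), which also lay over the noncoding RNA gene LOC105379243. Replicate 3 had 2 others, at 8338 bp (fold 5.12) and 12738 bp (fold 4.35).

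**Figure D2:**
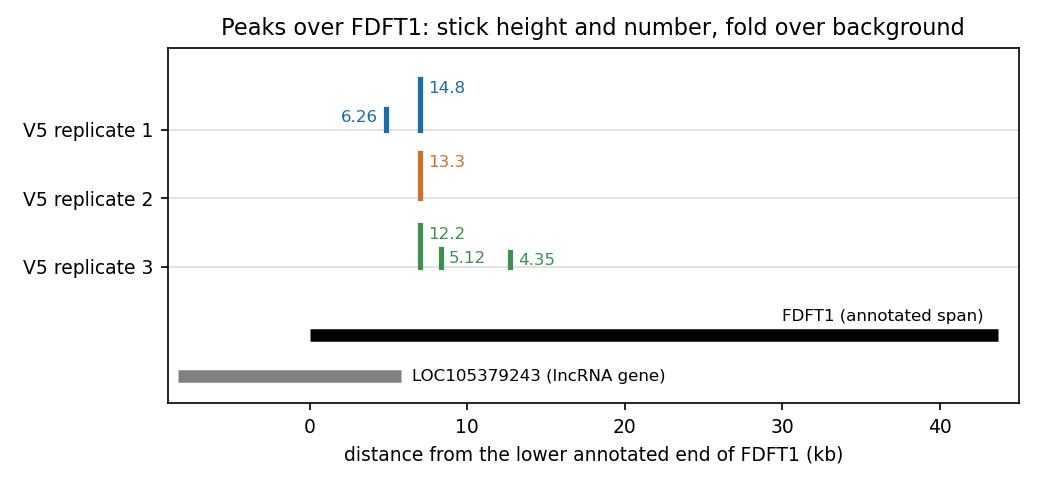
Map of FDFT1 with the distance from its lower annotated end in kb on the x axis and 1 row for each V5 library. Each stick is a peak summit, with its height and number giving the fold over background, and the black and grey bars are the spans of FDFT1 and of a noncoding RNA gene. The sticks of 14.8, 13.3 and 12.2 stand at the same place, about 7 kb inside the gene, and the weaker ones are not shared.

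SQLE encodes squalene epoxidase, which adds oxygen to squalene and is a slow, regulated step of the route. Its peak had folds of 8.70, 11.8 and 10.4 in replicates 1, 2 and 3. The mean percentile was 98.0 ± 1.29 (SD, n = 3). It was 21st of the 380 genes with a peak in every library. The summits lay 201, 175 and 187 bp outside the lower annotated end of SQLE (chromosome 8, 124998505 to 125022283), in the gap between SQLE and its divergent noncoding partner SQLE-DT, which ends at 124998198. The peaks of replicates 2 and 3 reached both genes, and that of replicate 1 lay 5 bp from each. The 3 peaks shared 298 bp and their summits lay within 26 bp.

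The order of FDFT1 and SQLE depended on the measure. By fold, FDFT1 ranked above SQLE in each library. By the deposited −log10 q, FDFT1 stood at 38.5 and SQLE at 18.0 in replicate 1, but SQLE was higher in replicate 2 (33.1 against 25.6 for FDFT1) and in replicate 3 (28.2 against 25.6).

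LSS encodes lanosterol synthase, which folds epoxidised squalene into the first sterol. It had no peak in replicate 1, where the nearest lay 2602 kb away. Its peaks in replicates 2 and 3 had folds of 4.92 and 5.65 and percentiles of 40.1 and 68.4, a mean of 54.3 (n = 2). Ranked by −log10 q instead, the mean percentile was 34.7. They shared 154 bp (chr21:46228814-46228967) just upstream of the start at 46228774, with summits 134 and 162 bp before it. The same peaks lay 250 and 264 bp from the noncoding gene MCM3AP-AS1, and the lists cannot assign them to either gene.

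MSMO1 encodes the methylsterol monooxygenase that begins the removal of the methyl groups at carbon 4 of the sterol. Its start (chromosome 4, 165327669) had a peak in each library, with folds of 7.20, 8.94 and 5.71 in replicates 1, 2 and 3. The percentiles were 89.8, 95.5 and 69.8, a mean of 85.1 ± 13.5 (SD, n = 3), below FDFT1 and SQLE in each list. By −log10 q the mean percentile was 91.2 ± 6.91 (n = 3). The summits lay 99, 184 and 179 bp upstream of the start, and the peaks shared 235 bp. A second peak, in replicate 2 alone, had its summit 1200 bp downstream (fold 5.41).

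HSD17B7, which encodes the ketosteroid reductase of the demethylation steps, and SC5D, which encodes the desaturase acting on lathosterol, had a peak in replicate 3 only. Both peaks were narrow, 154 bp at HSD17B7 and 166 bp at SC5D, against a median of 224 bp in the list of replicate 3. The LSS peaks of replicates 2 and 3 were also narrow, at 168 and 180 bp. The folds of HSD17B7 and SC5D, 6.25 and 6.56, stood at percentiles 79.8 and 84.0. Of the 339 protein-coding genes with a peak in replicate 3 alone, the median percentile was 34.8 and the upper quartile 56.1, so both lay above that quartile. By fold they ranked above MSMO1 and LSS in that library. By −log10 q, MSMO1 (9.73) stood above SC5D (7.18) and HSD17B7 (7.06), and LSS (4.56) below them. At HSD17B7 the nearest peak of replicate 2 lay 543 kb away and that of replicate 1 lay 1566 kb away. At SC5D these distances were 146 and 1628 kb.

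The genes without a peak stood in the middle and at the end of the route. CYP51A1 encodes the lanosterol demethylase, NSDHL the dehydrogenase that follows MSMO1, and DHCR7 the reductase of dehydrocholesterol, whose loss causes Smith-Lemli-Opitz syndrome. The nearest peak to CYP51A1 lay 544, 560 and 560 kb away in replicates 1, 2 and 3, and the nearest to NSDHL 757, 777 and 758 kb away. For DHCR7 the distances were 1738, 174 and 1300 kb. A missing peak means that no peak passed the threshold behind the list, whose lowest −log10 q was 1.31, 1.31 and 1.33 in replicates 1, 2 and 3, and does not show that TAF2 was absent. No member had a peak between 1000 bp and 23 kb from its span. The nearest such peak was 23.3 kb from FDFT1, in replicates 1 and 3.

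Annotated starts were available for 7 members, all but FDFT1 and SQLE. LSS and MSMO1 had a peak within 1000 bp of a start in at least 2 libraries, against 1.38% of the 15813 genes with a start. With any library the count was 4 of 7, against 4.10%. By library it was 1 of 7 in replicate 1 (1.42% of genes with a start), 2 in replicate 2 (2.16%) and 4 in replicate 3 (2.51%). RefSeq places the start of CYP51A1 326 bp inside its annotated span, and it gives DHCR7 a start 650 bp and SC5D one 81 bp inside the outermost start. No peak lay at those of CYP51A1 and DHCR7, and the SC5D peak, 101 bp upstream of the outer start, is nearest to that one.

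All 7 start peaks of LSS, MSMO1, HSD17B7 and SC5D had their summit upstream of the start, 99 to 184 bp away. Of 903 peaks with a summit within 1000 bp of a start of any other protein-coding gene, 67.8% lay upstream, and the median position was 69 bp upstream. A share of 37.4% lay between 50 and 250 bp upstream, where all 7 member peaks fell. This interval was not planned in advance, and the 903 peaks pool the libraries, so a site can count more than once. The SQLE summits would fall there too if its lower end is taken as the start, on the side of its divergent partner. With 7 peaks from 4 genes, some of them the same site in several libraries, no test was made of this position.

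**Figure D3:**
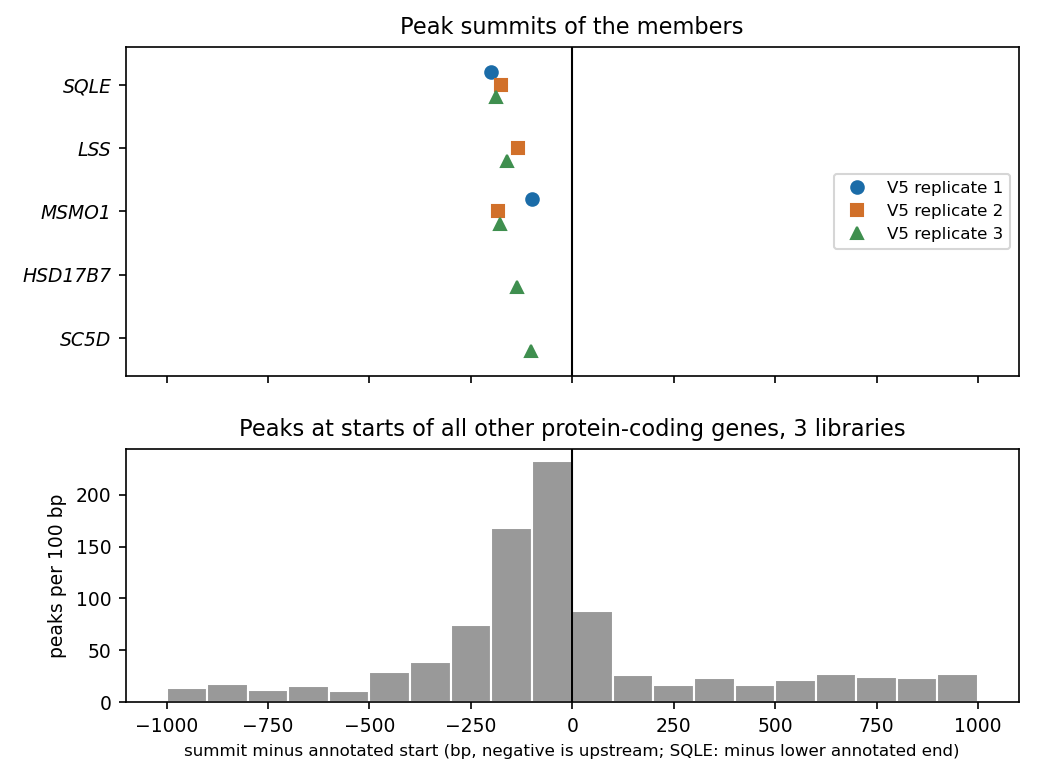
Position of peak summits relative to the annotated start in bp, with negative values upstream. The upper panel shows 5 members by library (SQLE relative to its lower annotated end) and the lower panel counts, per 100 bp, the 903 summits at starts of all other protein-coding genes. The member summits lie from 201 to 99 bp before the start, in or at the edges of the bin from 200 to 100 bp upstream. That bin holds 168 summits of the other genes, and the fullest bin, from 100 bp upstream to the start, holds 233.

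Sequence elements were then set beside these positions, over the 250 bases before each of the 9 member starts. CCAAT boxes, searched as CCAAT on both strands, were present before 7 of these starts, against 32.7% of 22156 such windows of protein-coding genes. The 2 windows of SC5D overlap and hold the same box. Counted by gene, 6 of the 7 members had a box, and no share by gene was computed. MSMO1 had 4 boxes, and 1.03% of all windows held 4 or more. In replicates 2 and 3 the MSMO1 summit lay 0 and 2 bp from the first box, and in replicate 1 it lay 23 bp from the nearest one. At LSS both summits lay 12 bp from its single box, on opposite sides. The gap was 45 bp at SC5D and 83 bp at HSD17B7. The 4 boxes of MSMO1 are spread from -185 to -30 bp of its start, so a summit among them is never far from one. Such gaps were not measured at other genes, so closeness to a box was not tested. The count of boxes did not separate genes with a peak from those without. NSDHL, with no peak, held 5 boxes, of which 2 overlap on opposite strands, and the inner start of DHCR7 held 2. CYP51A1 had none.

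GC boxes, bound by SP factors and searched as GGGCGG on both strands, were found before 7 of the 9 starts, against 53.7% of all windows. LSS had 6, and the inner start of DHCR7, which had no peak, had 4. Of all windows, 10.2% held 4 or more, and no share was computed for 6 or more. The sterol regulatory element was searched as TCACNCCAC on both strands and had no match before any member start, against 0.885% of windows. With 1 mismatch it was found before 4 of the 9 starts, 1 each of MSMO1, HSD17B7, SC5D and DHCR7, against 21.6% of windows. E-boxes, searched as CANNTG, which reads the same on both strands, were found before 8 of the 9 starts, against 58.1% of windows. TATAA on either strand was found before none, against 15.6%. GC content was 55.6 to 76.8% over the member windows, with a median of 62% and quartiles of 52 and 70.4% over all windows. A match gives the letters only and does not show a bound site.

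**Figure D4:**
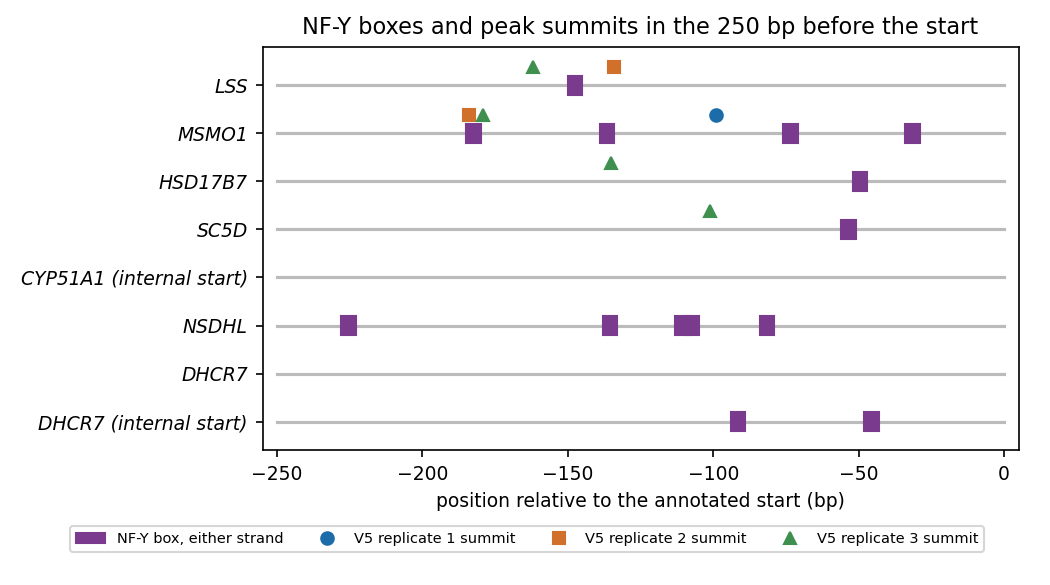
CCAAT boxes (purple blocks, either strand, named NF-Y boxes in the plot) and peak summits (coloured points, 1 for each V5 library) in the 250 bp before starts of 7 members (for SC5D the outer start), with the position relative to the start in bp on the x axis. Summits of MSMO1 and LSS lie within 23 bp of a box, and those of SC5D and HSD17B7 lie 45 and 83 bp from one. NSDHL holds 5 boxes without a summit.

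The enzymes of the mevalonate steps, which lead to the substrate of FDFT1, were set, with GGPS1 of the geranylgeranyl branch, beside the members as a list chosen for the pathway. At least 2 libraries had a peak at 4 of the 9 members and at 7 of the 8 mevalonate genes tested here, PMVK being the one without, against 3.76% of all genes. The median of the mean percentiles of the genes called was 91.5 over the 4 members and 79.3 over the 7 mevalonate genes, against 57.8 over all 751 genes called. A peak in all 3 libraries was found at 3 of those 4 members and 3 of those 7 mevalonate genes, against 380 of the 751 genes called. Over those 380 genes the median of the mean percentiles was 69.4 and the upper quartile 85.7. Among the mevalonate genes, HMGCS1, the HMG-CoA synthase, stood at a mean percentile of 99.5 ± 0.380 (SD, n = 3). IDI1, the isomerase, stood at 84.9 ± 11.2 and FDPS, which makes the substrate of FDFT1, at 79.3 ± 2.68 (n = 3 each). ACAT2, MVK, MVD and GGPS1 had a peak in replicates 1 and 3 and not in replicate 2. Their mean percentiles were 57.0, 79.4, 28.5 and 47.5 (n = 2 each).

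By library, a peak was called at 3, 4 and 6 members and at 7, 3 and 7 mevalonate genes in replicates 1, 2 and 3. Of all protein-coding genes, 3.70%, 5.75% and 4.87% had a peak in these replicates. Replicate 1 thus had the fewest members but 7 of 8 mevalonate genes. Of 4 further genes of the sterol ring steps, TM7SF2, LBR, EBP and ERG28, none had a peak in at least 2 libraries, against 3.76% of all genes. LBR, a C14 sterol reductase of the nuclear envelope, had one in replicate 3 (fold 4.23), at percentile 20.8. Across these 13 genes from squalene onwards, the 4 with a peak in at least 2 libraries act at the first 3 steps and at the C4 demethylation. NSDHL and HSD17B7, which also act in the C4 demethylation, were not called by that rule.

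**Figure D5:**
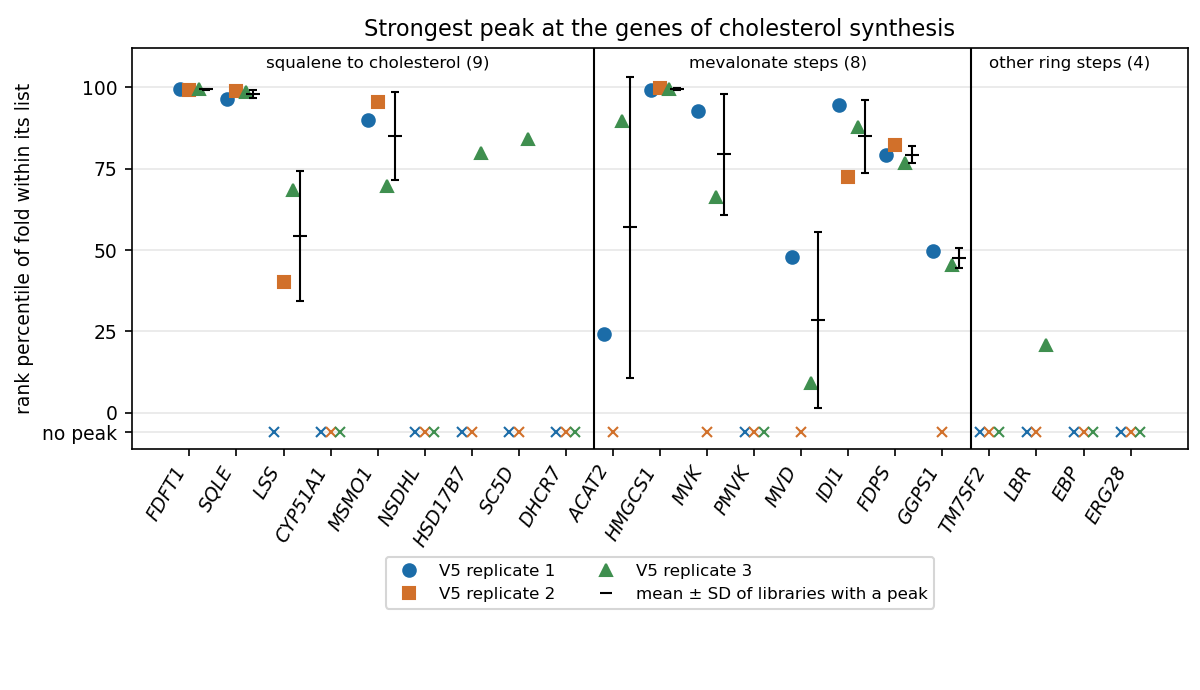
Rank percentile of the strongest peak (y axis, within each library's list) at the members, the mevalonate genes and 4 further genes of the sterol ring steps (x axis), with 3 V5 libraries as coloured points, crosses where a library had no peak and black bars for the mean ± SD of the libraries with a peak. Among the members and the mevalonate genes, FDFT1, SQLE and HMGCS1 lie above 96 in every library, and the ring-step genes on the right have 1 point in all.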

How the data were processed

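Peaks of the 3 V5 libraries were used as deposited, 1 list per library, on GRCh38 per the submitters' processing notes. No source used here names an aligner or a peak caller, or the threshold and control behind the lists. The deposited fold enrichment is a linear ratio over the background of the authors' caller, and the deposited −log10 p and −log10 q are that caller's values. The deposited score is the −log10 q times 10 without its decimals and entered no result. Fold was ranked within each list only. Depth is unknown, since the lists hold no counts.

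A gene was called with a peak overlapping its RefSeq span (GRCh38.p14) or the 1000 bp around it by at least 1 bp in at least 2 libraries. Starts and promoter sequences come from RefSeq windows of 250 bases before and 50 after a start. They covered 7 of 9 members. The members, the gene lists, the 6 hepatocyte genes and the rule for naming genes (all members, and other pathway genes with a peak in at least 2 libraries) were chosen with earlier results of these data known. Of the hepatocyte genes, APOB had a peak in 3 libraries, APOA1 and SERPINA1 in 2, and ALB, FGB and TTR in 0. Of all protein-coding genes, 3.76% had a peak in at least 2 libraries. Peaks give no expression levels. Alternatives changed the window, the peak filter, the number of libraries, the value ranked and the replicates used. Some genes of the pathway lists are not reported here and were left out of the lists. The calling code was checked on simulated data. Calculations used Python 3.11.15, numpy 2.4.6, pandas 2.3.3 and matplotlib 3.10.9.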

Additional observations from a re-analysis of the deposited data

How the results depend on the processing

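The count of 4 members with a peak in at least 2 libraries was 3 to 6 in 15 of 17 other settings, 3 to 4 among them with each replicate left out in turn. It was 2 when peaks had to overlap the span itself (3.25% of all genes), because the peaks of LSS and MSMO1 lie just outside it. It was also 2 when they had to lie at an annotated start (1.38% of genes with a start), because FDFT1 and SQLE have none in the table. The 2 members with a start peak became 1 with −log10 q of at least 3 or of at least 5, with fold of at least 5, among the strongest 1000 peaks and with all 3 libraries, leaving MSMO1, and 4 with any library. The share of all genes with a start, 1.38%, became 0.930%, 0.582%, 0.588%, 0.588% and 0.594% in that order, and 4.10% with any library. These settings for start peaks were chosen after the data were seen. With a replicate left out the count was 1 to 2, and LSS was lost without replicate 2 or replicate 3. The share of genes with a start was 1.02%, 0.822% and 0.727% without replicates 1, 2 and 3. The mean percentile of FDFT1, 99.5, became 97.8 when ranked by −log10 q, 97.8 by −log10 p and 99.3 among peaks at protein-coding genes, and those of SQLE and MSMO1 moved by less than their SD over 3 libraries. That of LSS, 54.3 over 2 libraries, became 34.7 by −log10 q or by −log10 p. LSS has no peak in replicate 1, so leaving that replicate out gave it no new value. Over all genes the 751 calls became 382 with −log10 q of at least 5, 408 with fold of at least 5, 388 among the strongest 1000 peaks, 380 with 3 libraries, 1732 with any library, 274 at gene ends, 219 at starts, 452 without replicate 2 and 497 without replicate 3. No paired analysis was possible because no peak list of the control libraries was analysed here.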

Other observations

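Genes that control sterol supply or carry sterol in and out of the cell were also listed, 8 regulators and uptake genes and 9 genes of other routes. At least 2 libraries had a peak at 2 of the 8 and at 1 of the 9, against 3.76% of all protein-coding genes. SREBF2, which encodes SREBP-2, had a peak at its start in each library, at a mean percentile of 99.5 ± 0.110 (SD, n = 3), with summits 110, 140 and 142 bp upstream. In replicate 1 its fold of 14.8 and its −log10 q of 38.5 were the same as at FDFT1. Such ties also occurred elsewhere. In replicate 3 a weaker FDFT1 peak and a peak over ABCA1 both had a fold of 5.12 and a −log10 q of 4.09. STARD4, a sterol carrier, had weak start peaks in replicates 1 and 3, at percentiles 3.06 and 8.93. Of the other routes, ABCA1, which exports cholesterol, was the only gene with a peak in at least 2 libraries, and its shared peak lay 41650 to 41712 bp downstream of the annotated start, at a mean percentile of 48.7 ± 20.4 (n = 3). SREBF1, SCAP, INSIG1, INSIG2, NPC1 and NPC1L1 had a peak in 1 library or in none.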
